A study of Mus musculus with 92 samples.

Results

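Caveolins and EHD proteins shape the plasma membrane and the tubules of the recycling endosome, and 6 of their genes are described here, of 54532 genes in the deposited count tables: Cav1, Cav2, Ehd1, Ehd2, Ehd3 and Ehd4. They were taken by gene name, and they had been chosen by their measured fold changes in organoids given A-485 and in organoids of the first set after deletion of Eif4g2. The values of those contrasts are therefore given as a description, with no test, and the tests below use tissues, a second organoid set and fetal spheroids. The study measured poly(A) RNA of mouse intestine in 92 libraries of 21 groups, to compare loss of the translation initiation factor eIF4G2, encoded by Eif4g2, with inhibition of a histone acetyltransferase pair. Total counts ran from 8652040 to 37611126 per library. Levels are CPM, read counts scaled to the TMM-adjusted size of each library, and comparisons of levels between genes use CPM per kilobase.

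All groups carry a tamoxifen-inducible Cre recombinase, CreER. In mice with Rosa26(CreER), an allele active in all tissues, crypts and villi were taken on day 9 after the first tamoxifen dose from Eif4g2(flox/+) animals, called heterozygous, and Eif4g2(flox/flox) animals, called homozygous. There were 5 and 4 crypt libraries and 5 and 5 villus libraries. In mice with Vil1(CreER), driven in the intestinal epithelium, the labels give a 3-month time point and tamoxifen at 100 mg/kg on 4 days. There the numbers were 4 and 3 for crypts, and 4 and 6 for villi. Small intestinal organoids are epithelial cultures grown from adult crypts, and fetal spheroids are their counterpart from fetal gut. All cultures carried Rosa26(CreER) and grew in ENR medium (EGF, Noggin, R-spondin). The first organoid set held 3 Eif4g2(flox/flox) lines with DMSO or with 4-hydroxytamoxifen (4-OHT, 0.5 µM for 24 h), collected on day 6. The second set held 4 lines each of Eif4g2(flox/flox), Eif4g2(flox/+) and Rosa26(CreER) alone, all given 4-OHT. Spheroids were 6 flox/flox and 5 flox/+ lines, each with DMSO and with 4-OHT. Several spheroid lines share the number in their names (S9484, S9488, S9612, S9020), and the labels do not say what it stands for, so p-values treat them as separate samples.

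A-485, a catalytic inhibitor of the acetyltransferases p300 and CBP, was given to organoids for 4 days at 3, 5 or 10 µM, beside DMSO, in 4 lines. Line S6026 was Eif4g2(+/+), and lines S6070, S6074 and S6076 were Eif4g2(flox/flox) with no 4-OHT listed. Line S6070 also belongs to the first organoid set, and the 3 doses share their DMSO libraries.

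Caveolae are flask-shaped pits of the plasma membrane. CAV1 and CAV2 build their scaffold, cavins coat it from the cytoplasm, and the ATPase EHD2 forms rings around the neck that keep the pit at the surface. They are abundant in endothelial cells, fibroblasts and smooth muscle, and the differentiated gut epithelium holds few. EHD1, EHD3 and EHD4 are relatives of EHD2 that work on endosomes, where they help membrane tubules pinch off so that receptors return to the cell surface.

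The sequences around the annotated starts are shown for Cav1, Cav2 and Ehd2, the caveolar genes among the 6, and for Ehd4, as 1 of the endosomal ones. Each window runs from 250 bases before to 50 bases after the start, from RefSeq on GRCm38.p6, 5′ to 3′ on the gene's strand. A window was found for 5 of the 6 genes, and none for Ehd1. Cav1 has 2 windows, of which the first is shown, chr6:17306085-17306384 (+). Those of Cav2, Ehd2 and Ehd4 are chr6:17280935-17281234 (+), chr7:15967486-15967785 (-) and chr2:120154526-120154825 (-). Capitals mark matches, on either strand, to the GC box letters GGGCGG, the TATA letters TATAAA and the AP-1 letters TGANTCA.
Cav1: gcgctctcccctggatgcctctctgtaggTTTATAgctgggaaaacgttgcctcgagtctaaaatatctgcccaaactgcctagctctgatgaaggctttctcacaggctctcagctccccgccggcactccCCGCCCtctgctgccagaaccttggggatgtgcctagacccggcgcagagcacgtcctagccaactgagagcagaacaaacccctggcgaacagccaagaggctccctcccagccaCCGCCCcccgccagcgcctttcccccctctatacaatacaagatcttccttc
Cav2: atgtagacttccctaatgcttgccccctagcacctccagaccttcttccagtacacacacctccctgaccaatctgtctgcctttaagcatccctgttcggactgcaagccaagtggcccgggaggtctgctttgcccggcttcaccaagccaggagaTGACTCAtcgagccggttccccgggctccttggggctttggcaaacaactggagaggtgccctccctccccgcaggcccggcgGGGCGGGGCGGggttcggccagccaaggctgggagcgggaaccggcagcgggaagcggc
Ehd2: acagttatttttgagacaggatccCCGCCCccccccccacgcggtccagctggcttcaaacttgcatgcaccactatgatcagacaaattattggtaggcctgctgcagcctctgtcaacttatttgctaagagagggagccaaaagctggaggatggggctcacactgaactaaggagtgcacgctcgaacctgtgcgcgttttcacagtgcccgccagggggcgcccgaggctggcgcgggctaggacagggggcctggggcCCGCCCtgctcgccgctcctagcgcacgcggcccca
Ehd4: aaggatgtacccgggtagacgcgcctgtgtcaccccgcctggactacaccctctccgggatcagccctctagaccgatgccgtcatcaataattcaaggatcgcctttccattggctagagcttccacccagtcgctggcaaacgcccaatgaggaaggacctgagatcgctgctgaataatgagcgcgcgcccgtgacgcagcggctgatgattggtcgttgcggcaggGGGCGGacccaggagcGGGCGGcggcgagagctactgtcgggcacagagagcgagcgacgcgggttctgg

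GC box letters stood in all 4 windows shown, 2 matches in each, and in 35.66% of the 32851 windows of that table. The AP-1 letters stood only in the Cav2 window among the 4, and in 7.808% of all windows. Among the 4, TATA letters stood only in the Cav1 window, read on the reverse strand, and in 13.62% of all windows. The TEAD letters GGAATG (14.66% of all windows) and the CRE letters TGACGTCA (1.79%) stood in none of the 4. CpG pairs numbered 13, 16, 18 and 29 in the order printed, with a median of 7 over all windows.

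On GRCm38, Cav2 lies at 17281185 to 17289115 and Cav1 at 17306335 to 17341452, on the plus strand of chromosome 6, with 17219 bases between them. The antisense gene Gm15581 overlaps both and had at most 4 counts in any library. Ehd1 lies on chromosome 19 (6276725 to 6300096, plus strand), and Ehd2 on chromosome 7 (15946958 to 15967567, minus strand). Ehd3 lies on chromosome 17 (73804134 to 73832094, plus strand), and Ehd4 on chromosome 2 (120089175 to 120154606, minus strand). No stretch of 50 bases is shared between the annotated transcripts of any pair of the 6 genes, so reads of that length belong to 1 of them.

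Eif4g2 itself checks the labels. Its mean fell from 729 ± 44.3 CPM (SD, n = 3) with DMSO to 142 ± 2.29 (n = 3) with 4-OHT in the first organoid set. In the second set it was 1213 ± 36.5 in CreER-only, 754 ± 19.8 in flox/+ and 228 ± 21.9 in flox/flox organoids (n = 4 each). In flox/flox spheroids it was 906 ± 172 with DMSO and 128 ± 50.2 with 4-OHT (n = 6 each). In flox/+ spheroids it was 927 ± 247 and 527 ± 125 (n = 5 each). In Rosa26-CreER mice the heterozygous and homozygous means were 350 and 85.7 CPM for crypts, and 342 and 54.6 for villi. In Vil1-CreER mice they were 470.5 and 237 CPM for crypts, and 390 and 152 for villi. A-485 libraries kept it between 1191 ± 53.9 (DMSO) and 1371 ± 178 (10 µM, n = 4 each). In cultures the summed levels of 8 immune, 6 smooth muscle and 8 endothelial markers stayed under 4 CPM in every library, against 4683 CPM or more for 7 epithelial markers. The 9 fibroblast markers did not: they summed to 11.8 to 266 CPM in flox/+ spheroids with DMSO and 13.9 to 209 with 4-OHT. In the other cultures they summed to at most 23.2 CPM. Villus libraries held 94.5 to 6933 CPM of immune markers, so the tissues are mixtures, in which fewer cells of a type and less RNA per cell cannot be told apart.

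The A-485 libraries held the highest level of Ehd2 of all groups, and Cav1 and Ehd2 went from at most 1.16 CPM in any DMSO library to at least 13.3 CPM in any treated one. Cav1 had 0.931, 0.322, 0.326 and 0.078 CPM in the 4 DMSO libraries (lines S6026, S6070, S6074, S6076), which are 12, 4, 4 and 1 counts. With 3 µM it had 57.4, 87.7, 34.2 and 23.0 CPM, and with 5 µM 67.7, 114, 49.98 and 57.2. With 10 µM it had 24.1, 26.9, 13.3 and 22.4 CPM. Every treated library lay above every DMSO library, and every line was lower at 10 µM than at 5 µM. The fitted log2 fold changes against DMSO were 6.89 ± 0.57 (SE), 7.40 ± 0.58 and 5.66 ± 0.57 at 3, 5 and 10 µM. From 5 to 10 µM the difference was -1.74 ± 0.39, with line ratios of 0.236 to 0.391.

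Cav2, the caveolin that travels with CAV1, did not share that turn. Its DMSO levels were 6.28, 4.67, 4.65 and 3.20 CPM. They were 107, 144, 60.4 and 124 CPM with 3 µM, 172, 253, 117 and 243 with 5 µM, and 223, 278, 171 and 245 with 10 µM. No treated library overlapped DMSO, and all 4 lines were as high or higher at 10 µM than at 5 µM, by ratios of 1.01 to 1.47. The log2 fold changes against DMSO were 4.53 ± 0.32, 5.38 ± 0.33 and 5.60 ± 0.33.

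Ehd2, the caveolar neck ATPase, was graded over the doses. It had 1.16, 0.403, 1.14 and 0.858 CPM with DMSO and 65.0, 45.1, 30.7 and 31.6 with 3 µM. It had 177, 170, 127 and 177 CPM with 5 µM, and 330.4, 369, 354 and 317 with 10 µM. The 4 groups did not overlap at any step. The log2 fold changes against DMSO were 5.58 ± 0.29, 7.49 ± 0.30 and 8.56 ± 0.30, so that Ehd2 was higher by 1.07 at 10 than at 5 µM, a step over which Cav1 was lower.

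The endosomal relatives began from a high level and moved less. Ehd1 had 90.5, 98.7, 90.3 and 82.9 CPM with DMSO and 130, 133, 109 and 76.8 with 3 µM. With 5 µM it had 226, 226, 186 and 170 CPM, and with 10 µM 311, 389, 352 and 303. At 3 µM 1 of the 4 lines, S6076, lay below its DMSO library, and at 5 and 10 µM no library overlapped DMSO. The log2 fold changes were 0.31 ± 0.15, 1.16 ± 0.15 and 1.90 ± 0.15.

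Ehd4, an early endosome member of the family, had 43.0, 28.1, 37.0 and 34.3 CPM with DMSO and 117, 155, 129 and 102 with 10 µM. At 3 µM (36.7 to 52.0 CPM) and 5 µM (42.8 to 65.6 CPM) the groups overlapped DMSO by 1 or more libraries. The log2 fold changes were 0.40 ± 0.17, 0.68 ± 0.17 and 1.82 ± 0.17, with most of the difference between 5 and 10 µM (1.14). Ehd3, the closest relative of EHD1, was at 0 counts in 21 of the 56 culture libraries and at most at 1.60 CPM, and it was left out of the tests on cultures by the filter on low counts. A count of 0 in the 4 flox/flox organoid libraries allows up to 0.168 to 0.186 CPM of Ehd3, at 3 counts per library.

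Of all genes tested, 19.2% were called in either direction at 3 µM, 49.6% at 5 µM and 62% at 10 µM, at an adjusted p under 0.05 in edgeR's quasi-likelihood test with Benjamini-Hochberg adjustment. Since these contrasts chose the genes, their own calls are not counted, and the share of all genes without overlap was not counted either. Between doses 24.5% were called from 3 to 5 µM and 18.9% from 5 to 10 µM. Per kilobase, the order with DMSO was Ehd1 (24.4 ± 1.74 CPM per kb, SD, n = 4), Ehd4 (8.89 ± 1.54), Cav2 (1.41 ± 0.378), Ehd2 (0.174 ± 0.0692) and Cav1 (0.120 ± 0.106), of which Ehd2 and Cav1 did not differ beyond their spread. At 10 µM it was Ehd1 (91.4 ± 10.8), Cav2 (68.7 ± 13.5), Ehd2 (66.9 ± 4.58), Ehd4 (31.4 ± 5.66) and Cav1 (6.29 ± 1.71), where Cav2 and Ehd2 did not differ beyond their spread. The summed level of 9 fibroblast markers was 9.02 to 13.0 CPM with DMSO and 0.223 to 0.817 CPM at 10 µM. With DMSO that sum is mostly Vim (9.89 CPM), which was at 0 in every 10 µM library; the other 8 markers each averaged under 1 CPM.

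**Figure D1:**
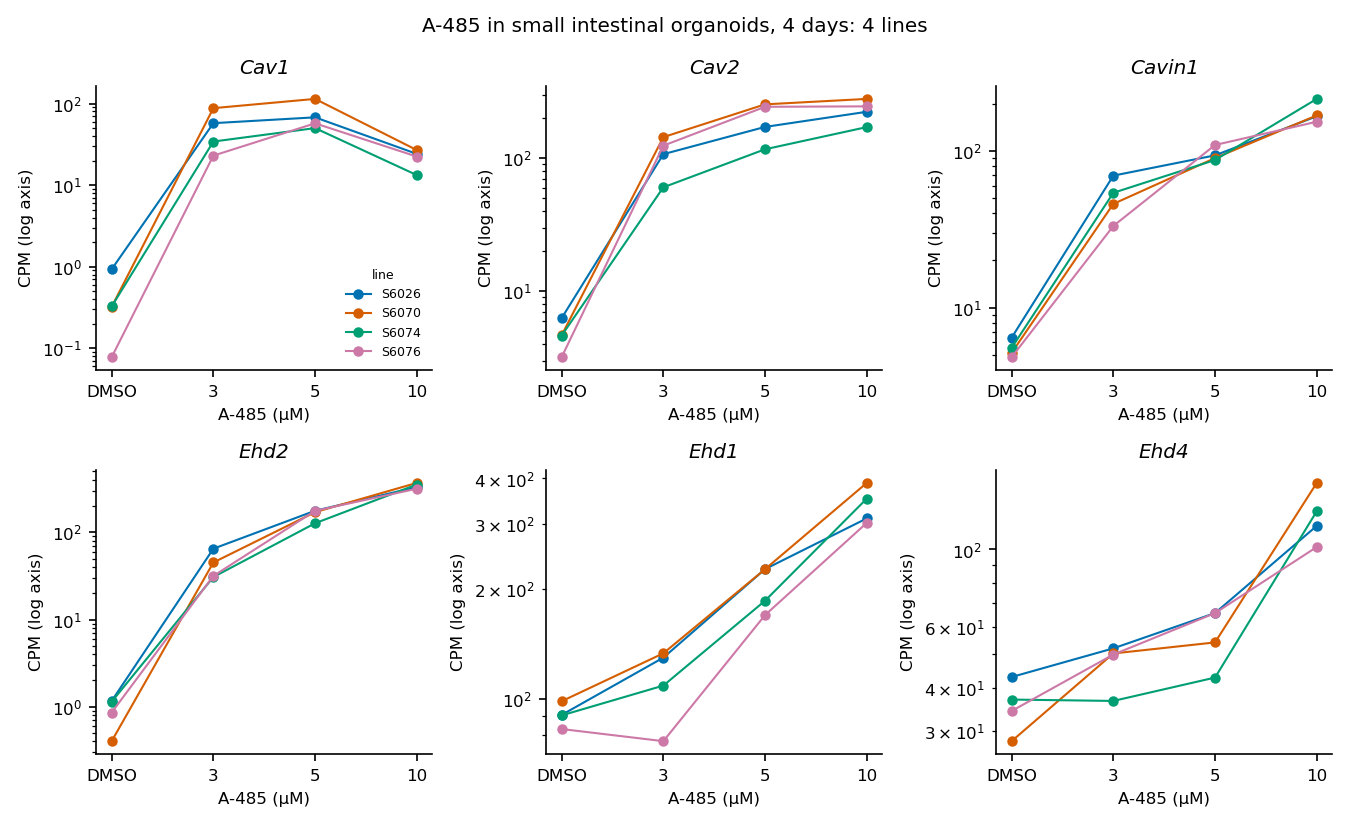
CPM (log axis) of Cav1, Cav2, Cavin1, Ehd2, Ehd1 and Ehd4 in organoids with DMSO or A-485 at 3, 5 and 10 µM, 1 line of points per organoid line (n = 4). Cav1 is lower at 10 µM than at 5 µM in all 4 lines, while Ehd2 reaches 317 to 369 CPM at 10 µM.

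In the first organoid set, deletion of Eif4g2 went with the same genes at high levels. Cav1 had 1.42, 1.86 and 0.431 CPM with DMSO and 108, 70.3 and 23.1 with 4-OHT, and Cav2 had 12.0, 13.2 and 6.21 CPM against 96.4, 66.0 and 50.9. Ehd2 had 5.81, 6.90 and 2.76 CPM with DMSO and 84.7, 53.8 and 29.0 with 4-OHT. None of these 3 genes, chosen with this contrast known, overlapped between the groups, and the share of all genes without overlap was not counted. The log2 fold changes were 5.69 ± 0.69 for Cav1, 2.75 ± 0.33 for Cav2 and 3.41 ± 0.47 for Ehd2. Ehd4 had 39.1, 37.2 and 33.7 CPM with DMSO and 64.7, 59.8 and 56.8 with 4-OHT, a log2 fold change of 0.71 ± 0.09. Ehd1 differed little, at 112, 120 and 114 CPM against 136, 130 and 118 (0.14 ± 0.08). In this set 35.4% of all genes were called.

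Set beside each other in 1 fit of the shared table, A-485 and the deletion differed most for Ehd2. Its log2 fold change was larger with A-485 by 2.16 at 3 µM, 4.08 at 5 µM and 5.15 at 10 µM than with 4-OHT. The DMSO levels differed, with Ehd2 means of 0.892 CPM beside A-485 and 5.16 CPM in the first set. Its treated means were 43.1, 163 and 342 CPM at 3, 5 and 10 µM, and 55.9 CPM with 4-OHT. At 3 µM the larger log2 value thus rests on the lower DMSO level, as the treated mean was below that with 4-OHT. For Cav2 the differences in log2 fold change were 1.78, 2.62 and 2.85, and for Ehd1 they were 0.16, 1.01 and 1.75. For Ehd4 they were -0.31, -0.04 and 1.10, so its value at 5 µM lay closest to that of the deletion. For Cav1 they were 1.19 ± 0.99 at 3 µM, 1.70 ± 0.98 at 5 µM and -0.03 at 10 µM. The SE is taken from the value and its test statistic, which is unstable for so small a value, so none is given for the last. Of all genes, 4.87%, 23.6% and 39.4% were called in these differences at 3, 5 and 10 µM. In line S6070, which is in both experiments, Cav1 had 108 CPM with 4-OHT and 87.7, 114 and 26.9 CPM with 3, 5 and 10 µM A-485. In the same line Ehd2 had 84.7 CPM with 4-OHT and 45.1, 170 and 369 CPM with A-485. Its DMSO levels in that line were 5.81 CPM in the first set and 0.403 CPM beside A-485. Those of Cav1 were 1.42 and 0.322 CPM. Why the DMSO levels differ was not tested. A-485 organoids were collected after 4 days and 4-OHT organoids on day 6, and all lines of the first set were flox/flox, so 4-OHT and deletion cannot be told apart there.

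The second organoid set repeated the deletion in other lines, against 2 kinds of control given 4-OHT as well. Against flox/+, 4 of the 5 genes that passed the filter were called and all 4 rose; of all genes 46.8% were called, 22.6% higher. Cav1 had 0.186, 0.926, 9.72 and 4.49 CPM in flox/flox and 0.551, 0.279, 0.419 and 0.413 in flox/+ lines. It rose by 3.18 ± 1.02 on the log2 scale (edgeR adjusted p = 0.0252), and 3 of the 4 flox/flox lines lay above every flox/+ line. Cav1 was tested in the fit of all 3 organoid groups. With only flox/flox and flox/+ lines in the fit it did not pass the filter on low counts. The flox/+ lines, at 0.551 CPM or less, did not bring it past that filter. The high values belong to lines S9309 (9.72) and S9310 (4.49).

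Cav2 had 3.71, 5.06, 27.9 and 12.8 CPM in flox/flox and 4.23, 2.79, 3.67 and 3.91 in flox/+ lines (1.75 ± 0.64, edgeR adjusted p = 0.0474), with the same 2 lines high. Ehd2 had 0.866, 1.54, 8.83 and 5.94 CPM against 1.04, 1.12, 1.41 and 0.526 (2.08 ± 0.66, edgeR adjusted p = 0.0231). These groups overlapped through 1 flox/flox line, S8872, in each gene. Ehd4 separated the groups: it had 61.4, 57.9, 55.1 and 50.1 CPM in flox/flox and 48.6, 45.6, 47.4 and 45.3 in flox/+ lines, a rise of 0.26 ± 0.07 (edgeR adjusted p = 0.0108). Ehd1 had 62.9 to 79.4 CPM against 54.5 to 68.9 and was not called (0.23 ± 0.10, edgeR adjusted p = 0.0754).

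Against CreER-only organoids, 2 of the 5 were called, Cav1 (3.11 ± 1.01, edgeR adjusted p = 0.0274) and Ehd4 (0.25 ± 0.07, adjusted p = 0.0136), both higher; of all genes 45.3% were called, 21.9% higher. The CreER-only lines had 0.864, 0.621, 0.259 and 0 CPM of Cav1, where the count of 0 allows up to 0.176 CPM. Cav2 (10.1, 10.1, 4.92 and 2.58 CPM in CreER-only lines) differed by 0.83 ± 0.61 (edgeR adjusted p = 0.305) and Ehd2 (2.65, 1.86, 1.77 and 0.762 CPM) by 1.28 ± 0.63 (adjusted p = 0.118), neither called. Between flox/+ and CreER-only organoids edgeR called none of the 5, among 0.113% of all genes called. At an unadjusted p under 0.05 there were 0 of the 5 and 1481 of all genes, and DESeq2 called 0 of the 5 and 156 of all genes.

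Ehd4 stayed called whichever of the 8 libraries was left out, in each of these comparisons. The caveolar genes did not: Cav1 kept its call against flox/+ in 3 of 8 and Cav2 in 2 of 8. Leaving out flox/flox line S9309 or any 1 of 4 flox/+ lines ended the call of Cav1, with adjusted p up to 0.0779. For Cav2 line S9310 did so as well, with adjusted p up to 0.164. Ehd2 kept its call in 3 of 8, lost without S9309, S9310 or flox/+ replicates 1, 2 or 4 (adjusted p up to 0.0717). Against CreER-only, Cav1 kept it in 3 of 8, lost without S9309, S9310 or CreER replicates 2, 3 or 4 (adjusted p up to 0.0863). Fibroblast markers summed to 3.53 to 4.41 CPM in flox/flox, 7.17 to 11.1 in flox/+ and 6.17 to 10.8 in CreER-only lines. Of the 9 only Vim and Pdgfrb passed the filter: against flox/+, Vim fell by 1.85 and Pdgfrb rose by 1.31 (edgeR adjusted p = 0.0149), and their part in the caveolar genes was not tested. The collagen markers Col1a2 and Col3a1 were at 0 in every library of these 2 groups.

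**Figure D2:**
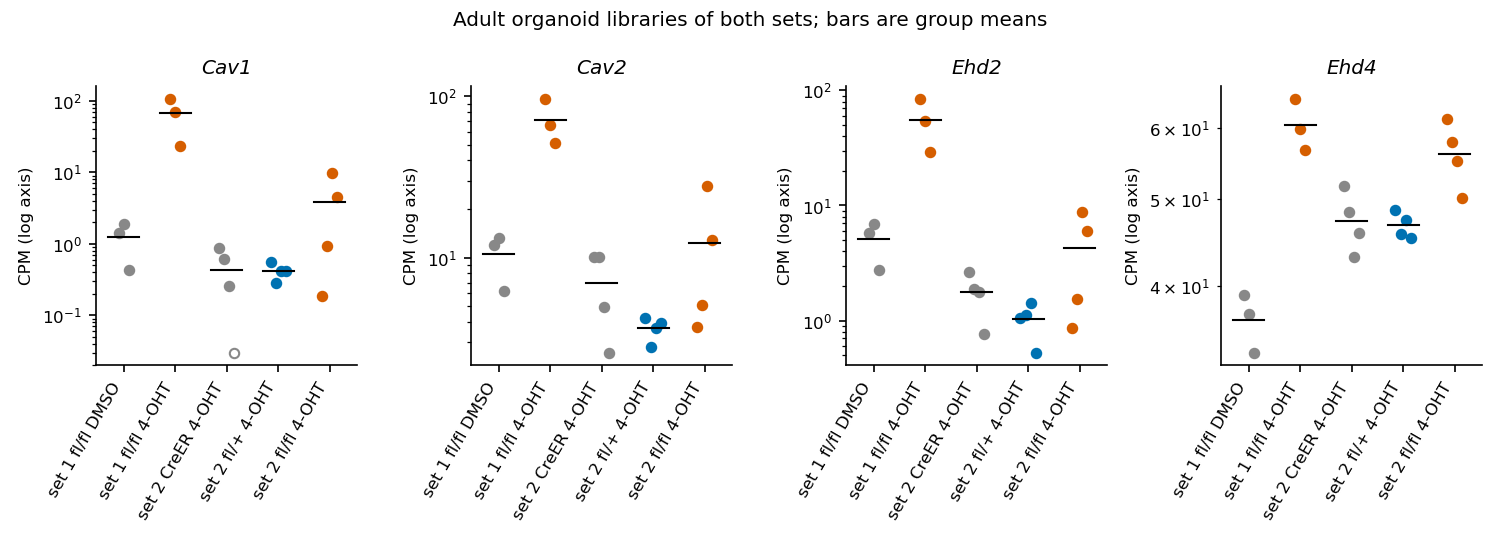
CPM (log axis) of Cav1, Cav2, Ehd2 and Ehd4 in each adult organoid library of the first set (DMSO, 4-OHT) and the second set (CreER-only, flox/+, flox/flox, all with 4-OHT), with bars at group means and the library with 0 Cav1 counts as an open circle at the foot of the axis. In the second set 2 of the 4 flox/flox lines carry the high Cav1, Cav2 and Ehd2 levels, while Ehd4 separates flox/flox from flox/+ lines.

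Flox/flox fetal spheroids given 4-OHT held the highest mean Cav1 and Cav2 levels of all groups (282 and 373 CPM), and each line was higher with 4-OHT than with DMSO. In flox/flox spheroids 4-OHT was compared with DMSO, and 3 of the 5 genes that passed the filter were called higher; of all genes 19.1% were called, 9.01% higher. Cav1 ran from 4.05 to 101 CPM (median 15.5, n = 6) with DMSO and from 52.7 to 747 (median 180) with 4-OHT. The groups overlapped, because the lines began at different levels, yet every line was higher with 4-OHT, by ratios of 7.38 to 19.2 (median 12.8). The rise was 3.36 ± 1.04 on the log2 scale (edgeR adjusted p = 0.0296), and 3.64 ± 0.18 with the line as a block (adjusted p = 4.7e-05), a fit that called 34.6% of all genes.

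Ehd2 ran from 14.2 to 73.5 CPM with DMSO (median 29.5) and from 90.8 to 248 with 4-OHT (median 145), with no overlap. It rose by 1.99 ± 0.49 (edgeR adjusted p = 0.00765), and in 6 of 6 lines by ratios of 2.76 to 7.45. Ehd4 ran from 43.0 to 63.3 CPM with DMSO and from 55.5 to 114 with 4-OHT, and rose by 0.67 ± 0.21 (edgeR adjusted p = 0.0312), in 6 of 6 lines by ratios of 1.28 to 2.07.

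Cav2 ran from 38.5 to 250 CPM with DMSO (median 76.8) and from 142 to 671 with 4-OHT (median 300). It missed the threshold without the block (1.69 ± 0.60, edgeR adjusted p = 0.0547) and passed it with the line as a block (1.75 ± 0.12, adjusted p = 7.2e-05), with ratios of 2.68 to 4.35 in 6 of 6 lines. Ehd1 had 86.8 to 203 CPM with DMSO and 83.8 to 173 with 4-OHT, and was higher in 3 of 6 lines (0.02 ± 0.23, edgeR adjusted p = 0.972). Libraries were left out only in the fit without the line as a block, which does not use the pairing of DMSO and 4-OHT. There leaving out 1 library ended the call of Cav1 in 5 of 12 cases (DMSO replicate 1, 3, 4 or 5, or 4-OHT replicate 2), with adjusted p up to 0.0741. That of Ehd4 ended in 5 of 12 (DMSO replicate 1, 5 or 6, or 4-OHT replicate 2 or 4), with adjusted p up to 0.0815. Ehd2 kept its call in 12 of 12.

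Flox/+ spheroids lose 1 allele with 4-OHT, and edgeR called none of the 5 genes there, nor any of all genes (0%). At an unadjusted p under 0.05 there were 0 of the 5 and 15 of all genes, and DESeq2 called 0 of either. Cav1 had 96.1, 104, 139, 7.79 and 3.15 CPM with DMSO and 161, 161, 153, 19.3 and 3.36 with 4-OHT, higher in 5 of 5 lines by ratios of 1.07 to 2.48. Lines S9612-A and S9020-C, the last 2 values, were low under both treatments. Cav2 was higher in 5 of 5 lines by ratios of 1.05 to 1.72, and Ehd2 (0.789 to 1.93) and Ehd4 (0.901 to 1.24) in 4 of 5.

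Whether the 4-OHT effect differed between the genotypes was tested by an interaction. Without the line as a block edgeR called none of the 5 genes, among 1.62% of all genes (Cav1 2.86, adjusted p = 0.389). At an unadjusted p under 0.05 there were 1 of the 5 and 2096 of all genes, and DESeq2 called 0 of the 5 and 603 of all genes. With the line as a block, where 18.3% of all genes were called, 4 were: Cav1 (3.05 ± 0.26, edgeR adjusted p = 2.8e-05), Cav2 (1.32 ± 0.17, 0.00028), Ehd2 (1.87 ± 0.27, 0.00077) and Ehd4 (0.50 ± 0.14, 0.025). The same lines were given DMSO and 4-OHT, and Ehd1 was not called (-0.03 ± 0.16, edgeR adjusted p = 0.932). Between flox/flox and flox/+ spheroids given 4-OHT, edgeR called none of the 5 (unadjusted p under 0.05 in 1, DESeq2 0), among 10.5% of all genes called. Of all genes 3757 had an unadjusted p under 0.05 there and DESeq2 called 2251. In that comparison 5 of 8 fibroblast markers tested were lower in flox/flox. With DMSO it called none either (unadjusted 0, DESeq2 0), among 0% of all genes, of which 1084 had an unadjusted p under 0.05 and DESeq2 called 9. Fibroblast markers summed to 7.53 to 23.2 CPM in flox/flox spheroids with DMSO and 0.577 to 7.77 with 4-OHT; of 8 tested none was called higher and 1, Vim, lower. In flox/+ spheroids they were 11.8, 266, 20.4, 47.3 and 46.8 CPM with DMSO and 16.9, 209, 25.5, 13.9 and 19.3 with 4-OHT, and line S9612-J, with over 200 CPM, had 104 CPM of Cav1 with DMSO (highest of the group 139) and 161 with 4-OHT, level with the highest. The part of these markers was not tested.

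**Figure D3:**
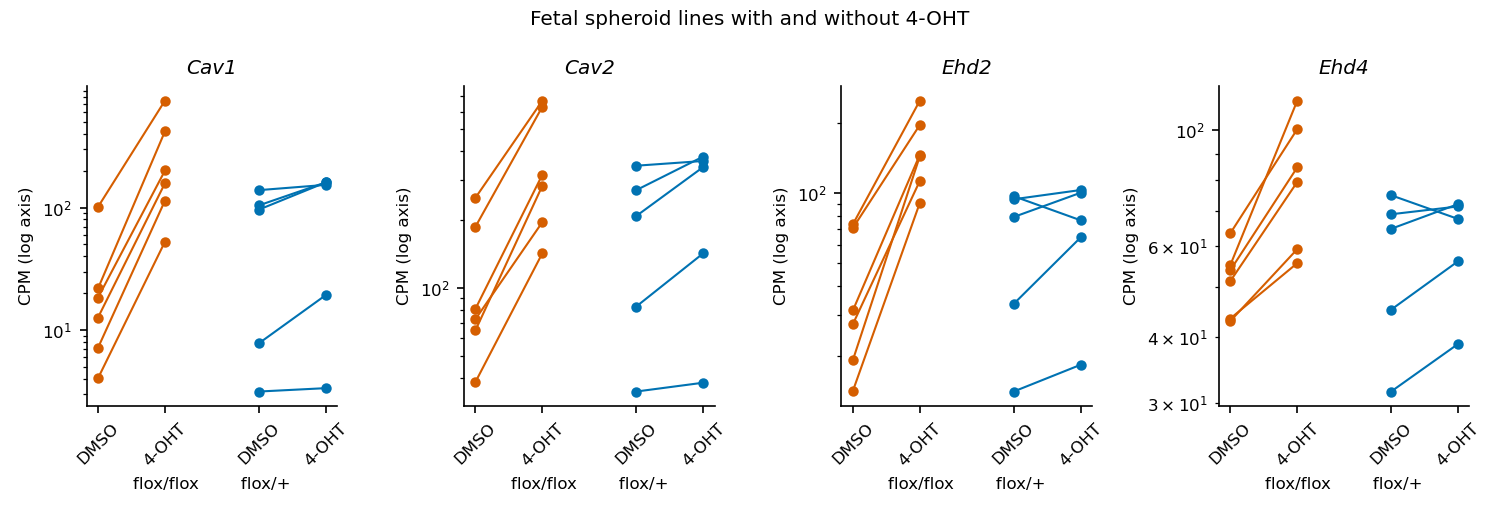
CPM (log axis) of Cav1, Cav2, Ehd2 and Ehd4 in fetal spheroid lines, each line joined between its DMSO and 4-OHT library (6 flox/flox, 5 flox/+). All 6 flox/flox lines are higher with 4-OHT in each of the 4 genes, by ratios of 7.38 to 19.2 for Cav1 against 1.07 to 2.48 in flox/+ lines.

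Spheroids and adult organoids of the second set were also compared under 4-OHT. In flox/+ cultures 4 of the 5 genes were called higher in spheroids; of all genes 39.1% were called, 23% higher. Cav1 was higher by 7.86 ± 1.44 (edgeR adjusted p = 0.000467), Cav2 by 6.09 ± 0.83 (3.41e-05), Ehd2 by 6.14 ± 0.71 (7.89e-06) and Ehd1 by 0.83 ± 0.19 (0.0025). The first 3 did not overlap between the cultures, and the share of all genes without overlap was not counted. Ehd4 was not called (0.37, edgeR adjusted p = 0.145). In flox/flox cultures all 5 were called higher, where 31.9% of all genes were called, 18.5% higher: Cav1 by 6.17 ± 1.25 (edgeR adjusted p = 0.00147), Cav2 by 4.89 ± 0.77 (0.000178), Ehd2 by 5.15 ± 0.65 (2.71e-05), Ehd1 by 0.87 ± 0.19 (0.00198) and Ehd4 by 0.53 ± 0.19 (0.0411). Ehd4 kept that call in 3 of 10 leave-outs: it was lost without any of the 4 organoid libraries or spheroid replicates 2, 3 or 4 (adjusted p up to 0.126). The other 4 kept theirs in every one. Fibroblast markers moved with these genes in flox/+ cultures, where 3 of the 5 tested were called higher in spheroids (Col1a1, Col1a2 and Col3a1) and the sum was 13.9 to 209 CPM against 7.17 to 11.1. In flox/flox cultures none of the 5 was called, the sum being 0.577 to 7.77 CPM in spheroids against 3.53 to 4.41, and the smallest edgeR adjusted p was 0.0869. Their part was not tested. Spheroids and organoids were grown as separate cultures, so culture type and time of culture cannot be told apart. The difference between flox/flox and flox/+ was also tested between spheroids and organoids, where edgeR called none of the 5 (unadjusted p under 0.05 in 0, DESeq2 0), among 0.0532% of all genes called. Of all genes 1294 had an unadjusted p under 0.05 there and DESeq2 called 136.

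Per kilobase, flox/flox spheroids given 4-OHT had Cav2 first (112 ± 67.2 CPM per kb, SD, n = 6), then Cav1 (81.9 ± 75.5), Ehd1 (35.4 ± 8.61), Ehd2 (30.5 ± 11.2) and Ehd4 (20.5 ± 5.67). Cav2 and Cav1 did not differ beyond their spread there, nor did Ehd1 and Ehd2. Ehd3 came last (0.0142 ± 0.0190).

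In tissue the order was another one: Ehd1 led, and the caveolins were scarce in villi. Ehd1 had 374, 442, 343, 435 and 432 CPM in heterozygous Rosa26-CreER villi, and 84.7, 78.3, 65.1, 86.0 and 69.4 CPM in the crypts of the same animals. The tissues do not overlap, and this difference was not tested. In homozygous villi Ehd1 had 320, 295, 269, 345 and 298 CPM and fell by 0.46 ± 0.10 on the log2 scale (edgeR adjusted p = 0.00624). Ehd4 had 38.2, 32.4, 33.95, 29.4 and 26.6 CPM in heterozygous and 47.9, 60.2, 53.8, 43.0 and 32.1 in homozygous villi, a rise of 0.51 ± 0.16 (edgeR adjusted p = 0.0271). These were the 2 genes called of 5 that passed the filter, among 33.2% of all genes.

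Cav1 lay at 0.038 to 2.46 CPM in heterozygous and 0.675 to 2.45 CPM in homozygous Rosa26-CreER villi, and Cav2 and Ehd2 likewise overlapped at 2.28 CPM or less. None of these 3 was called. The call of Ehd1 held in 10 of 10 leave-outs. That of Ehd4 held in 5 of 10, lost without heterozygous replicate 2, 4 or 5 or homozygous replicate 2 or 3 (adjusted p up to 0.0703). In a fit that also held whether a library had Y-linked transcripts, the adjusted p of Ehd1 was 0.0504. Of the 8 immune markers 6 were called lower there, with sums of 3474 to 6933 CPM in heterozygous and 865 to 3270 in homozygous villi, and their part in the fall of Ehd1 was not tested.

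Vil1-CreER villi gave the same direction for Ehd1. It had 237, 193, 227 and 223 CPM in heterozygous animals and 133, 115, 131, 100.2, 186 and 122 CPM (median 127) in homozygous ones, with no overlap. It fell by 0.76 ± 0.15 (edgeR adjusted p = 0.0013), and was the only gene called of 4 that passed the filter, where 42.5% of all genes were called, 21.6% lower. The call held in 10 of 10 leave-outs. Immune markers summed to 2701 to 4735 CPM in heterozygous and 94.5 to 1495 in homozygous villi, and their part was not tested here either.

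Ehd3 had 1.97, 1.58, 1.84 and 1.36 CPM in heterozygous Vil1-CreER villi and a median of 0.268 CPM (0.087 to 2.10) in homozygous ones. Replicate 1 alone had 2.10 CPM, and the others at most 0.429. The difference missed the threshold (-1.69 ± 0.67, edgeR adjusted p = 0.059) and passed it without that library (adjusted p = 0.00023). Cav1 had 1, 0, 1 and 3 counts in heterozygous and 16, 10, 0, 12, 0 and 17 in homozygous villi and was not called (edgeR adjusted p = 0.0735). Cav1 passed the filter on low counts through the homozygous libraries, and it did so in 6 of the 10 leave-outs. Among these it was called without homozygous replicate 3 or 5, the libraries at 0 (edgeR adjusted p as low as 0.0278). Leaving out the lowest libraries of the higher group is no support for a rise. Ehd4 had 41.7 to 54.8 CPM against 33.5 to 63.2 (-0.18 ± 0.16, edgeR adjusted p = 0.370) and was called without homozygous replicate 1 (adjusted p = 0.0471). Ehd2 had at most 0.166 CPM in heterozygous and at least 0.219 in homozygous villi, too low to be tested. Fibroblast markers were also higher there, with sums of 12.1 to 16.6 CPM in heterozygous and 19.1 to 33.3 in homozygous villi: of 5 tested, 3 rose (Col3a1, Col6a1 and Pdgfrb) and 1 fell (Vim), and their part in the levels of Cav1, Ehd2 and Cavin1 was not tested.

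In Vil1-CreER crypts it was Ehd4 that differed. It had 23.3, 24.5, 29.9 and 24.4 CPM in heterozygous and 39.9, 32.4 and 39.7 CPM in homozygous animals, with no overlap. It rose by 0.55 ± 0.12 (edgeR adjusted p = 0.00878), the only gene called of 6, where 29.3% of all genes were called, 11.6% higher, and kept that call in 7 of 7 leave-outs. Ehd1 was lower in every homozygous library, at 37.5, 39.7 and 40.2 CPM against 44.4, 43.3, 46.7 and 44.9, but missed the threshold (-0.19 ± 0.07, edgeR adjusted p = 0.063). Without heterozygous replicate 2 Ehd1, Ehd2 and Ehd3 were called (adjusted p 0.0480, 0.0457 and 0.0228). That library had the highest Ehd3 (7.10 CPM) and Ehd2 (3.33 CPM) of its group, and the highest fibroblast marker sum (60.1 CPM, others 20.5 to 37.9).

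Rosa26-CreER crypts held more caveolin than any other tissue group, and edgeR called none of the 6 genes there, among 20.2% of all genes. At an unadjusted p under 0.05 there were 2 of the 6, beside 5715 of the 15846 genes tested. DESeq2 called 2 of the 6, Cav2 (adjusted p = 0.0270) and Ehd4 (0.0483), beside 4461 of all genes. Cav1 had 7.19, 8.19, 37.4, 8.99 and 1.26 CPM in heterozygous and 33.8, 23.2, 37.8 and 1.64 in homozygous animals (1.00 ± 0.96, edgeR adjusted p = 0.486). Ehd2 had 3.94, 4.05, 15.1, 6.01 and 1.03 CPM against 13.6, 11.5, 21.4 and 1.29 (1.06 ± 0.82, edgeR adjusted p = 0.387). Cav2 had 0.793, 0.506, 2.09, 0.496 and 0.189 CPM against 2.60, 4.38, 7.56 and 0.295 (2.25 ± 0.88, edgeR adjusted p = 0.0969). In all 3 genes heterozygous replicate 3 and homozygous replicate 4 were the highest of their groups, and replicate 5 of each group the lowest.

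Fibroblast markers followed the same libraries. Their sum was 231, 232, 1060, 478 and 49.9 CPM in heterozygous and 717, 709, 2448 and 55.6 CPM in homozygous Rosa26-CreER crypts. Endothelial markers summed to 2.71 to 6.69 CPM in heterozygous and 10.8, 23.1, 24.7 and 2.17 in homozygous crypts, where 1 endothelial marker (Eng) and 1 fibroblast marker (Pdgfrb) were called higher. Their part in the levels of Cav1, Cav2 and Ehd2 was not tested. Ehd4 did not follow them, with 36.7, 26.6, 28.4, 28.4 and 26.8 CPM against 39.3, 37.4, 33.5 and 32.6 (0.34 ± 0.12, edgeR adjusted p = 0.0783). Ehd1 had 65.1 to 86.0 CPM against 63.2 to 116 (0.33 ± 0.19, edgeR adjusted p = 0.248), and Ehd3 0.267 to 2.09 against 0.203 to 4.09 (1.08 ± 0.84, adjusted p = 0.387). Without homozygous replicate 5, Cav2, Ehd1 and Ehd4 were called (adjusted p 0.0188, 0.0292 and 0.0290), and without heterozygous replicate 1 Ehd4 was.

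**Figure D4:**
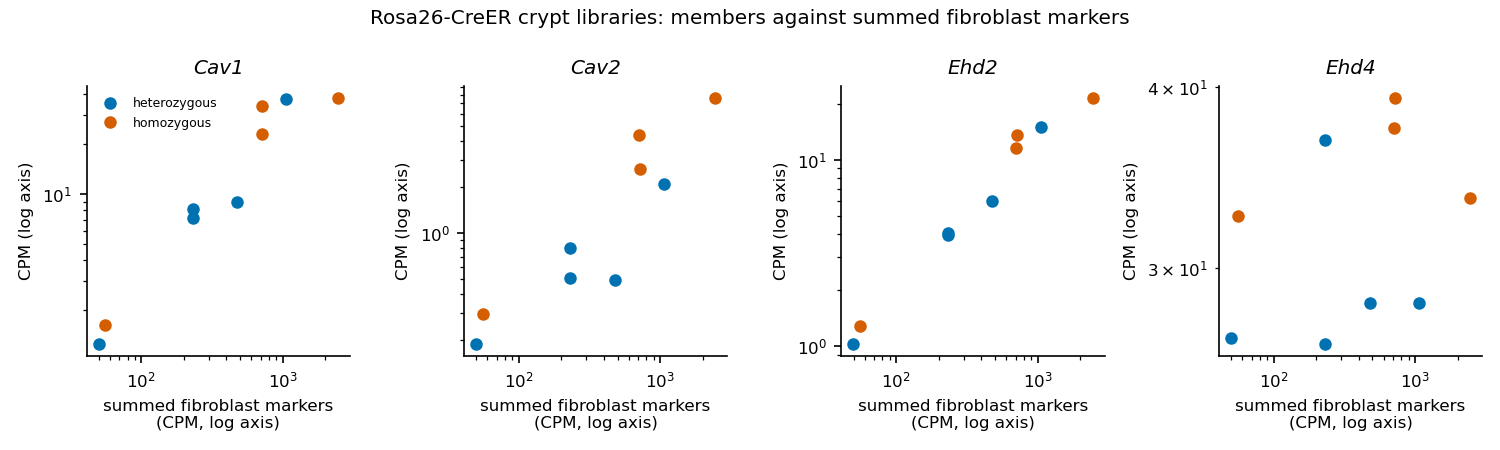
CPM of Cav1, Cav2, Ehd2 and Ehd4 in the 9 Rosa26-CreER crypt libraries (5 heterozygous, 4 homozygous) against the summed CPM of 9 fibroblast markers, both axes log. Cav1, Cav2 and Ehd2 are lowest in the 2 libraries with 49.9 and 55.6 CPM of markers and highest in the one with 2448, and Ehd4 stays between 26.6 and 39.3 CPM.

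Villi and crypts were compared by an interaction of genotype and tissue. With Rosa26-CreER the genotype difference of Ehd1 was lower in villi than in crypts by 0.67 ± 0.21 (edgeR adjusted p = 0.046), the only call of 6, where 11.5% of all genes were called, 4.86% lower. With the animal as a block it was -0.62 ± 0.18 (adjusted p = 0.0743), where 4.71% of all genes were called. With Vil1-CreER that of Ehd4 was lower in villi by 0.71 ± 0.23 (edgeR adjusted p = 0.0482), the only call of 6, where 15.5% were called, 6.14% lower. There Ehd1 differed by -0.55 (adjusted p = 0.0664), and by -0.74 ± 0.16 with the animal as a block (adjusted p = 0.0187), where 12.7% were called. These calls were not firm: Ehd1 kept its own in 6 of 19 leave-outs and Ehd4 in 4 of 17. That of Ehd1 was kept without heterozygous crypt replicate 4, homozygous crypt replicate 3 or 5, heterozygous villus replicate 1 or 3 or homozygous villus replicate 4, and reached 0.107 without others. That of Ehd4 was kept without heterozygous crypt replicate 3, heterozygous villus replicate 2 or homozygous villus replicate 1 or 5, and reached 0.107 without others.

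**Figure D5:**
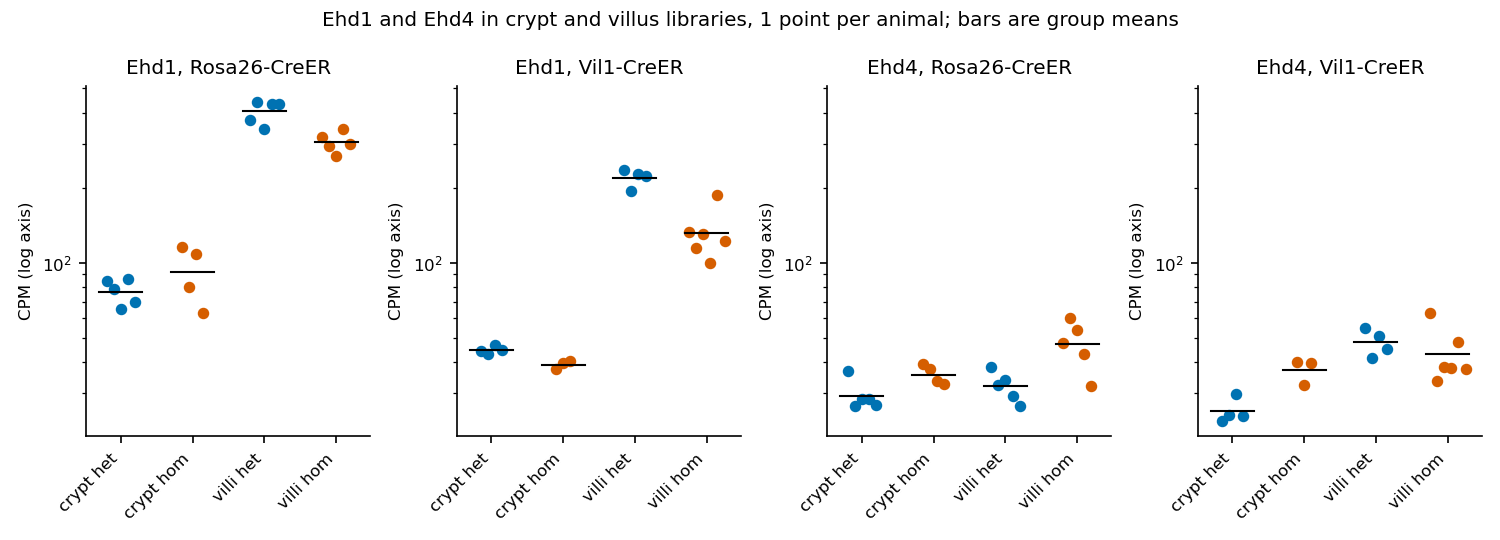
CPM (log axis) of Ehd1 and Ehd4 in each crypt and villus library of Rosa26-CreER and Vil1-CreER mice, heterozygous (het) and homozygous (hom), with bars at group means. Ehd1 is lower in homozygous than heterozygous villi with either driver, and Ehd4 is higher in homozygous Vil1-CreER crypts with no overlap.

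The proteins that build the caveola with CAV1 were counted as a list of 8: Cav3, the cavins Cavin1 to Cavin4, and the membrane-bending PACSINs Pacsin1 to Pacsin3. Cavin1, the cavin that caveolae need to form, followed Ehd2 over the A-485 doses, at 4.84 to 6.44 CPM with DMSO, 33.2 to 69.5 with 3 µM, 87.4 to 109 with 5 µM and 153 to 214 with 10 µM. Cavin2 followed Cav1 instead, with log2 fold changes of 5.51, 6.51 and 4.01 against DMSO, and was lower at 10 than at 5 µM by 2.50 ± 0.86. Cavin3 had 1.24, 3.03 and 3.10, and Pacsin3 1.47, 1.78 and 2.30. In the first organoid set the values were 2.94 ± 0.36 for Cavin1, 3.53 ± 0.53 for Cavin2, 1.73 ± 0.38 for Cavin3 and 1.25 ± 0.34 for Pacsin3.

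In the tested comparisons of cultures, Cavin1 was the recurrent call. In the second organoid set 2 of the 3 genes that passed the filter rose against flox/+ (46.8% of all genes called), Cavin1 (1.70 ± 0.37, edgeR adjusted p = 0.00342) and Pacsin3 (0.62 ± 0.21, 0.0243). Both rose against CreER-only (1.51 ± 0.37 and 0.63 ± 0.21), beside 45.3% of all genes called. The list's median was 0.62 against flox/+, beside -0.01 over all genes. In flox/flox spheroids given 4-OHT, 1 of 6 rose, Cavin1 (1.67 ± 0.51, edgeR adjusted p = 0.0255; 19.1% of all genes called), with a list median of 0.66 beside -0.02. In flox/+ spheroids none did, beside 0% of all genes called. Spheroids against flox/+ organoids gave 4 rises of 6 tested, Cavin2 (7.21), Cavin1 (4.44), Cavin3 (3.42) and Pacsin3 (2.06), and 1 fall, Pacsin2 (-0.73), beside 39.1% of all genes called. Against flox/flox organoids the rises were Cavin2 (5.46), Cavin1 (3.73) and Pacsin3 (1.25) and the fall again Pacsin2 (-0.73), beside 31.9%.

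In tissue the recurrent call was Pacsin3. It rose in crypts of Rosa26-CreER mice (1.03 ± 0.28, edgeR adjusted p = 0.0304, 1 of 6 tested, beside 20.2% of all genes called). It also rose in Vil1-CreER crypts (1.36 ± 0.22, edgeR adjusted p = 0.00309, 1 of 7 tested, beside 29.3%). In Vil1-CreER villi it rose by 4.36 ± 0.43 (edgeR adjusted p = 5.35e-06), from 0.088 to 0.291 CPM in heterozygous to 2.45 to 5.42 CPM in homozygous animals. It passed the filter on low counts there through the homozygous libraries, and the size of the rise rests on heterozygous levels near the floor. Of the 4 tested there, Cavin1 rose as well (2.00 ± 0.72), while Pacsin1 (-1.15 ± 0.30) and Pacsin2 (-0.38 ± 0.11) fell, beside 42.5% of all genes called. In Rosa26-CreER villi 2 of the 8 were tested and none called, beside 33.2% of all genes called. Pacsin3 was too low there for a test, at 0 to 0.107 CPM in heterozygous and 0.462 to 1.46 in homozygous animals. In the interaction of genotype and tissue Pacsin3 was higher in villi by 3.07 with Rosa26-CreER and 3.03 with Vil1-CreER, and Pacsin1 had -3.08 and -1.70. All 4 were called, beside 11.5% of all genes with Rosa26-CreER and 15.5% with Vil1-CreER.

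The second list holds 16 partners of EHD proteins and of endosomal recycling. In Rosa26-CreER crypts 5 of 16 rose and none fell, beside 20.2% of all genes called, with the largest rise in Rab11fip2 (0.78, edgeR adjusted p = 0.0198), a linker of RAB11 to recycling vesicles. In Vil1-CreER crypts 5 rose and 4 fell (29.3% of all genes called), led by the GTPase gene Arf6 (0.63) and by Ehbp1 (-0.48), which encodes an EHD-binding protein. Rosa26-CreER villi had 4 rises, led by Micall1 (0.59), whose product recruits EHD1 to tubules, and 4 falls, led by the membrane-curving Bin1 (-1.26), beside 33.2%. In Vil1-CreER villi none of 15 rose and 8 fell (42.5% of all genes called, 21.6% lower), again led by Bin1 (-2.44 ± 0.20, edgeR adjusted p = 1.21e-06). The list medians in these 4 comparisons were 0.34, -0.002, -0.18 and -0.33, beside 0.04, 0.01, -0.01 and 0.05 over all genes.

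In the second organoid set 7 of the 16 rose and 3 fell against flox/+, beside 46.8% of all genes called, led by Arf6 (0.89, edgeR adjusted p = 8.21e-09) and Bin1 (-1.02). Against CreER-only 5 rose and 5 fell, beside 45.3%, led by Arf6 (0.96) and Rab11fip5 (-1.23). In flox/flox spheroids given 4-OHT 3 rose and 2 fell, beside 19.1%, led by Rab11fip2 (1.33, edgeR adjusted p = 2.48e-05) and the SNARE gene Snap29 (-0.64). Between flox/flox and flox/+ spheroids given 4-OHT 2 were higher and 1 lower, beside 10.5%, led by Rab11fip2 (0.88) and Snap29 (-0.71). Rab11fip2 was also the only one called in the interaction with flox/+ spheroids (1.17), beside 1.62%. Spheroids against flox/+ organoids gave 5 rises and 2 falls, beside 39.1%, led by Rab11fip5 (5.54) and Numb (-0.91), and against flox/flox organoids 5 and 1, beside 31.9%, with the same leaders (5.22 and -0.49). In the interaction of genotype and tissue Bin1 led the falls, 1 with Rosa26-CreER (-2.39, beside 11.5%) and 2 with Vil1-CreER (-3.04, beside 15.5%), with no rise.

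The third list holds 13 genes of other endocytic coats: flotillins, dynamins, clathrin and the adaptor AP-2. Rosa26-CreER villi had 1 rise, the AP-2 subunit Ap2m1 (0.39), and 7 falls, led by the dynamin gene Dnm3 (-2.51), beside 33.2% of all genes called. Vil1-CreER villi had no rise and 6 falls, led by Dnm3 (-1.43), beside 42.5%. In crypts 1 rose with Rosa26-CreER (Ap2m1, 0.42; 20.2% of all genes called) and 1 fell with Vil1-CreER (Dnm1, -1.38; 29.3%). The second organoid set had 5 rises and 1 fall against flox/+, led by Ap2m1 (0.39) and the clathrin light chain Cltb (-0.37), and 3 and 3 against CreER-only with the same leaders, beside 46.8% and 45.3%. Flox/flox spheroids had 1 rise, Flot2 (1.30, edgeR adjusted p = 0.00111), and 2 falls, led by Dnm3 (-1.20), beside 19.1%. Between flox/flox and flox/+ spheroids given 4-OHT only Ap2a1 was called (0.37), beside 10.5% of all genes. In the interaction of genotype and tissue Flot1 was lower in villi with Rosa26-CreER (-0.60), beside 11.5% of all genes called. With Vil1-CreER 1 was higher, Dnm1 (1.72), and 3 lower, led by Cltb (-0.59), beside 15.5%. Spheroids had 6 of the 13 higher than flox/+ organoids and 5 higher than flox/flox organoids, none lower, led by Dnm3 (3.13 and 3.14), beside 39.1% and 31.9%. The list medians were -0.31 and -0.15 in Rosa26-CreER and Vil1-CreER villi, and within 0.002 of 0 in either crypt set. They were 0.09 and -0.02 in organoids against flox/+ and CreER-only, -0.08 in flox/flox spheroids, and 0.29 and 0.11 between spheroids and organoids. Over all genes these medians lay between -0.02 and 0.05.

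The neighbours of the caveolin pair within 250 kb that passed the filter in every comparison were Tes, on the Cav2 side, and Met, on the Cav1 side, which encodes the receptor of hepatocyte growth factor. Gm4876 passed it in 4 comparisons and Gm15473 in 1, and neither was called where tested. Met rose in villi with Rosa26-CreER (0.86, edgeR adjusted p = 0.0136) and Vil1-CreER (0.78, 0.00307), the second organoid set against flox/+ (0.34, 0.00091) and CreER-only (0.30, 0.0022), and flox/flox spheroids given 4-OHT (0.50, 0.0413). With A-485 its log2 fold changes were 0.28, 0.68 and 1.16 at 3, 5 and 10 µM, and 0.62 ± 0.08 in the first organoid set. Tes, a focal adhesion gene, was not called in any of the comparisons of genotype or of 4-OHT, and had 0.22, 0.09 and -0.14 with A-485 and -0.01 in the first organoid set. In the genotype and tissue interaction with Vil1-CreER it was lower in villi by 0.58 (edgeR adjusted p = 0.0313).

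Genes whose levels ran most like those of Cav1 and Ehd2 were found by Pearson's r of log2 CPM, given as a description. Over the 16 A-485 libraries and 10654 genes, Cav1 ran closest to S100a7a (0.990), Serpinb9b (0.971), Ly6d (0.964), Msln (0.962) and Ly6a (0.961), with Cav2 at rank 21 (0.934) and Ehd2 at rank 86 (0.870). Ehd2 ran closest to Atp11a (0.995), Slc4a11 (0.993), Cavin1 (0.993), Fkbp9 (0.990) and Fos (0.989), with Cav2 at rank 52 (0.974). Over the 34 libraries of the second organoid set and the spheroids and 10870 genes, Cav1 ran closest to Cav2 (0.973), Cavin1 (0.972), Col4a2 (0.970), Abcb1b (0.969) and Tnfrsf21 (0.967), with Ehd2 at rank 7 (0.965). Ehd2 ran closest to Cav2 (0.987), Kirrel (0.984), Sema3e (0.983), Cdh13 (0.983) and Gcnt1 (0.982), with Cav1 at rank 36. Ehd1 and Ehd4 ran less like both: their r with Cav1 was 0.53 and 0.45 in the A-485 libraries and 0.80 and 0.73 in the other set, and with Ehd2 0.83 and 0.79 against 0.81 and 0.62. The libraries of each set share treatments, culture types and lines, which such values carry along.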

How the data were processed

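The authors deposited raw counts of reads per gene in 4 tables. HISAT2 2.0.5 and GRCm38/mm10 are named in the submitters' processing notes; the counting program, its annotation and its use of strand are not given in the sources used here. Of the gene IDs, 98.3% have the start and end of GENCODE vM21. The genes and lists described, named by symbol, were chosen with earlier results of these data known.

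Counts were tested with edgeR 4.0.16 (filterByExpr, TMM scaling, robust quasi-likelihood test, Benjamini-Hochberg adjustment over all genes of a fit) in R 4.3.3, in 17 comparisons, with calls at an adjusted p under 0.05; 9 further contrasts were only described. DESeq2 1.42.0 and 230 alternative fits were run beside them. The fits were tested on simulated data. Crypts and villi, and DMSO and 4-OHT, come from the same animals or lines by the labels; same-line libraries deviated together in spheroids, with correlations from 0.323 to 0.839. Total counts ran from 8652040 to 37611126. No 2 libraries agreed within sampling noise. In every comparison the text names the 6 genes, each called caveola-coat gene, and the largest called rise and fall of the other 2 lists; the Wnt-supplemented (WENR) libraries were not used here.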

Additional observations from a re-analysis of the deposited data

Results flagged for a closer look

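Within groups of 4 to 10 libraries, 86 sets of values of the 6 genes were screened for a library far from the others, and 6 were found, where chance gives about 1 in 20. Ehd2 was lowest in line S6074 with 5 µM A-485, at 127 CPM against 170 to 177. Ehd4 was lowest in the same line with 3 µM A-485, at 36.7 CPM against 49.9 to 52.0. Ehd2 was lowest in flox/+ spheroid line S9020-C with 4-OHT, at 18.4 CPM against 64.6 to 103. Cav1 was lowest in homozygous Rosa26-CreER crypt replicate 5, at 1.64 CPM against 23.2 to 37.8. Ehd3 was highest in heterozygous Rosa26-CreER villus replicate 3, at 1.36 CPM against 0.400 to 0.538. Ehd4 was highest in heterozygous Rosa26-CreER crypt replicate 1, at 36.7 CPM against 26.6 to 28.4.

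The genotype effect differed between tissues for 2 genes. For Ehd1 with Rosa26-CreER it was lower in villi than in crypts by a log2 value of -0.67 (edgeR adjusted p = 0.046). For Ehd4 with Vil1-CreER the difference was -0.71 (edgeR adjusted p = 0.0482).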

How the results depend on the processing

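Leaving out 1 library gave between 0 and 3 called genes of the 6 in Rosa26-CreER crypts (0 with all libraries), 1 to 2 in Rosa26-CreER villi (2), 1 to 4 in Vil1-CreER crypts (1), 1 to 3 in Vil1-CreER villi (1), 1 to 5 between flox/flox and flox/+ organoids (4), 1 to 3 against CreER-only (2), 1 to 4 in flox/flox spheroids (3), 4 to 5 in either fetal comparison (4 and 5), and 0 to 2 in either tissue interaction (1 and 1). DESeq2 called 2 in Rosa26-CreER crypts (4461 of all genes, in place of 3198 with edgeR), 2 in Vil1-CreER villi and 3 in the Vil1-CreER interaction. With no filter on low counts the number was 2 in Vil1-CreER villi, 1 in either organoid comparison and 0 in either interaction. More genes are tested there, and 1221 of all genes were called in the Rosa26-CreER interaction in place of 1904. With only the 2 groups compared in the fit it was 2 against flox/+, where Cav1 did not pass the filter, and 1 against CreER-only. With Y-linked transcripts as a covariate, chosen after seeing the data, it was 1 in Rosa26-CreER villi, beside 2967 of all genes in place of 4504. Where no value shows it, the cause was not tested.

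With the replicate block, the number of the 6 called was 1 in either organoid comparison, whose numbers pair no samples by the labels (Cav1 0.0861, Cav2 0.120 and Ehd2 0.0563 against flox/+, Cav1 0.122 against CreER-only, edgeR adjusted p). It was 4 in the spheroid interaction, 0 in the Rosa26-CreER interaction and 2 in the Vil1-CreER one, beside 18.3%, 4.71% and 12.7% of all genes. In Rosa26-CreER crypts same-numbered libraries correlated by 0.0366 to 0.599 with no pairing in the labels. Blocking changed no other count of the 6 by over 1.5 times.

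No called gene changed direction under any alternative run; 44 values of uncalled genes did, 38 of them with 1 library left out. The others were, on the log2 scale, Cav1 (-0.46) and Ehd2 (-0.19) in Rosa26-CreER villi with the Y-linked covariate, Ehd1 in flox/flox spheroids (-0.0170 with DESeq2's size factors, -0.0169 with DESeq2), and Cav1 (0.31) and Ehd2 (0.10) in the Rosa26-CreER interaction with the animal as a block. With 1 library left out, values that changed sign ran as follows. Cav1 ran from -0.17 to 0.91 in Vil1-CreER crypts, from -1.10 to 0.60 in the Rosa26-CreER interaction and from -0.44 to 0.39 between flox/+ and CreER-only organoids. Ehd1 ran from -0.16 to 0.13 in the spheroid interaction, from -0.0893 to 0.14 for the deletion in spheroids minus organoids, from -0.0765 to 0.18 in flox/+ spheroids and from -0.0923 to 0.19 in flox/flox spheroids. Ehd2 ran from -0.0091 to 1.26 in Rosa26-CreER villi, from -0.0707 to 0.43 in flox/+ spheroids and from -1.31 to 0.29 in the Rosa26-CreER interaction. Ehd4 ran from -0.0556 to 0.22 in flox/+ spheroids and from -0.0506 to 0.0362 between flox/+ and CreER-only organoids.

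Over all genes, the number called moved by over 1.5 times in these cases with no library left out. It went from 4504 to 2967 in Rosa26-CreER villi with the Y-linked covariate, from 16 to 156 (DESeq2), 60 (no filter) or 4 (block) between flox/+ and CreER-only organoids, and from 2864 to 4649 (block) in flox/flox spheroids. It went from 0 to 1 (block) in flox/+ spheroids, from 1577 to 880 (2 groups) or 141 (block) between genotypes with 4-OHT, and from 0 to 9 (DESeq2) with DMSO. The spheroid interaction went from 243 to 603 (DESeq2), 123 (no filter) or 2758 (block), spheroids minus organoids from 8 to 136 (DESeq2) or 5 (no filter), and the Rosa26-CreER interaction from 1904 to 2884 (DESeq2), 1221 (no filter) or 777 (block). Leaving out 1 library took it from 3198 to as low as 1937 in Rosa26-CreER crypts, and from 4960 to 3223 in Vil1-CreER crypts. The Vil1-CreER interaction fell from 2766 to as low as 1456, and the spheroid one from 243 to 131. The Rosa26-CreER interaction ran from 1079 to 3068, spheroids minus organoids from 0 to 28, and flox/+ against CreER-only organoids from 1 to 32. Depth limits Cav1, Cav2, Ehd2 and Ehd3 in villi and Ehd3 in cultures, where a few counts make up a value. It also limits Cav1 and Ehd2 in the DMSO libraries beside A-485, and Cav1 in the control lines of the second organoid set. Fold changes of these genes against those libraries rest on few counts.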
